A study of Mus musculus with 8 samples.

Results

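Rgs2 and 9 related genes of the family called regulators of G protein signalling (RGS) were described in mouse heart, namely Rgs2, Rgs3, Rgs4, Rgs6, Rgs7, Rgs10, Rgs12, Rgs14, Rgs16 and Rgs19. All 10 symbols matched an Ensembl gene among the 33105 in the deposited read count table. The hearts were those of C57BL/6J mice, 4 libraries labelled Sham and 4 labelled MR, for mitral regurgitation, the leak of the mitral valve that a minimally invasive operation produces. The comparison addresses which signals go with the growth of a heart under volume load. Neither the labels nor the series text give age, sex, time after surgery or the part of the heart taken. Rgs2 was chosen by its lower count in MR in an earlier fit of these same libraries, and the other members were listed beside it with those results known, so that every MR against Sham value of a member is a description and supports nothing.

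A G protein carries the signal of a hormone receptor for as long as its alpha subunit holds GTP, and RGS proteins shorten that time by speeding up GTP hydrolysis. RGS2 acts mainly on the Gq class, through which angiotensin II, endothelin and alpha-adrenergic agonists drive hypertrophic growth of heart muscle cells. The relatives differ in partners: the R4 group (here Rgs2, Rgs3, Rgs4 and Rgs16) are mostly small proteins acting on Gq and Gi, the R7 group (Rgs6 and Rgs7) pair with G beta 5, the R12 group (Rgs10, Rgs12 and Rgs14) act on Gi, and Rgs19 belongs to the RZ group.

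Total counts ran from 42291511 to 58658094 per library, and 1 count was worth 0.0167 to 0.0237 CPM (counts-per-million, scaled by TMM factors between libraries). On the first principal component of log2 CPM, which held 30.5% of the variance, Sham replicate 3 lay at 7.2, nearer to the MR libraries (12.6 to 22.8) than to the other Sham libraries (−32.4 to −15.7). The second component set Sham replicate 1 (31.2) apart from the other 7 libraries (−19.4 to 19.7). Cardiomyocyte markers were abundant, with 51048 to 59335 CPM in Sham and 47049 to 53417 in MR in sum over 8 genes, of which 0 passed in edgeR. Rgs2 values are therefore also given without each library. Messenger RNA of whole tissue was measured, so fewer cells of a type and less RNA per cell cannot be told apart.

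Rgs2 was the only member past the threshold, an adjusted p under 0.05 in the edgeR quasi-likelihood test over 16603 genes, and it fell in MR hearts. Rgs2 (ENSMUSG00000026360, protein-coding, chromosome 1, 143999338 to 144004161, minus strand, GRCm38) was at 28.3, 34.3, 27.7 and 40.3 CPM in the Sham libraries, in replicate order, and at 17.3, 20.8, 19.0 and 22.6 CPM in the MR libraries. Every MR library lay below every Sham library, with Sham replicate 3 the lowest Sham library and Sham replicate 4 the highest. The means were 32.6 ± 5.89 and 19.9 ± 2.27 CPM (SD, n = 4), a 1.64-fold difference. The log2 fold change was −0.71 (SE 0.12, 95% interval −0.97 to −0.45, adjusted p = 0.0293 in edgeR), and these are the values that led to its choice. Of all genes tested, 0.217% passed in the lower direction and 0.458% in either direction. Counting error was small beside this spread, since Rgs2 held 818 to 1865 counts per library.

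**Figure D1:**
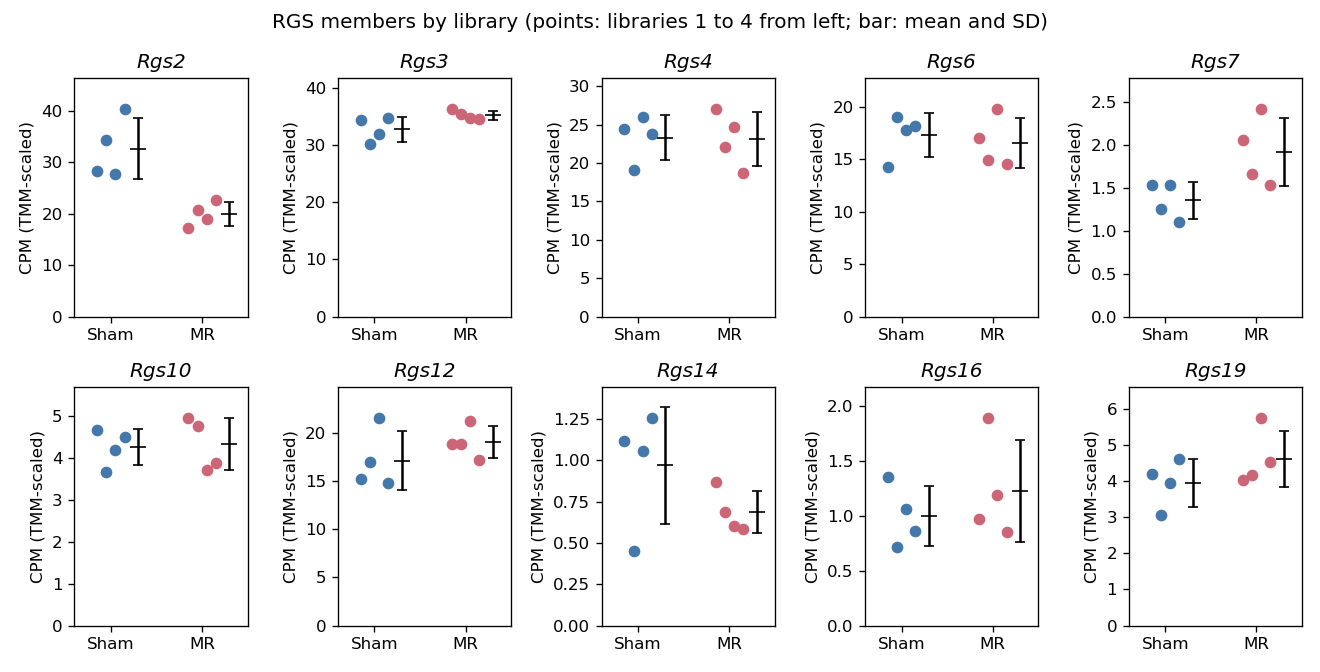
Scaled counts-per-million values (CPM) of the 10 RGS members in each library. Points are the 4 Sham (blue) and 4 MR (red) libraries in replicate order, and the bar beside them gives the mean and SD. For Rgs2 the MR libraries (17.3 to 22.6 CPM) lie below all Sham libraries (27.7 to 40.3 CPM), and for Rgs7 they lie just above, while the groups overlap for the other 8.

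Leaving out a library kept Rgs2 lower in MR but often ended the call. The log2 fold change ran from −0.79 without Sham replicate 3 to −0.60 without Sham replicate 4 in edgeR. The call was kept when Sham replicate 1 (adjusted p 0.0243), Sham replicate 3 (0.00281) or MR replicate 4 (0.0412) was left out. It was lost without Sham replicates 2 and 4 (adjusted p 0.0905 and 0.0762) and without MR replicates 1, 2 and 3 (adjusted p 0.0786, 0.0803 and 0.0837). Where the groups do not overlap, leaving out a library cannot turn the direction, so the kept direction is no sign of stability. Rgs2 passed under each of the 7 other settings tried, with log2 fold changes of −0.79 to −0.67.

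**Figure D2:**
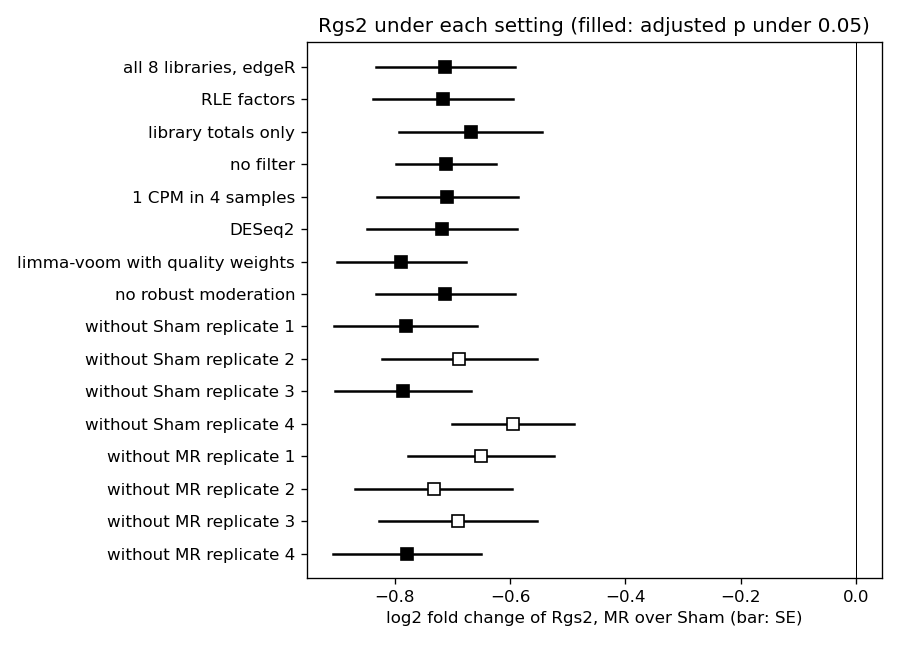
Log2 fold change of Rgs2, MR over Sham, under each setting, with bars of 1 SE. Filled squares are past an adjusted p of 0.05; the value stays between −0.79 and −0.60, and 5 of the 8 fits with a library left out are open squares.

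Because a ratio of counts within a library does not depend on scaling, Rgs2 was also set against other genes of the same library. Counts of Rgs2 per count of Rgs3 came to 0.824, 1.14, 0.871 and 1.16 for the Sham libraries and to 0.478, 0.586, 0.549 and 0.656 for the MR libraries, so that the groups did not overlap. Against Gnaq, the gene of the Gq alpha subunit that RGS2 acts on, the ratio was 0.936 ± 0.209 in Sham and 0.549 ± 0.0540 in MR (SD, n = 4), again without overlap. The ratios to Gna11, Rgs5 and Rgs6 did not overlap either. Against Rgs4 and Rgs12 the groups overlapped, at 1.07 to 1.79 in Sham and 0.642 to 1.20 in MR for Rgs4. Such ratios show unequal change and not which of the genes moved. Because Rgs2 was chosen by its lower count in MR, ratios without overlap were favoured and support nothing beyond its own values.

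**Figure D3:**
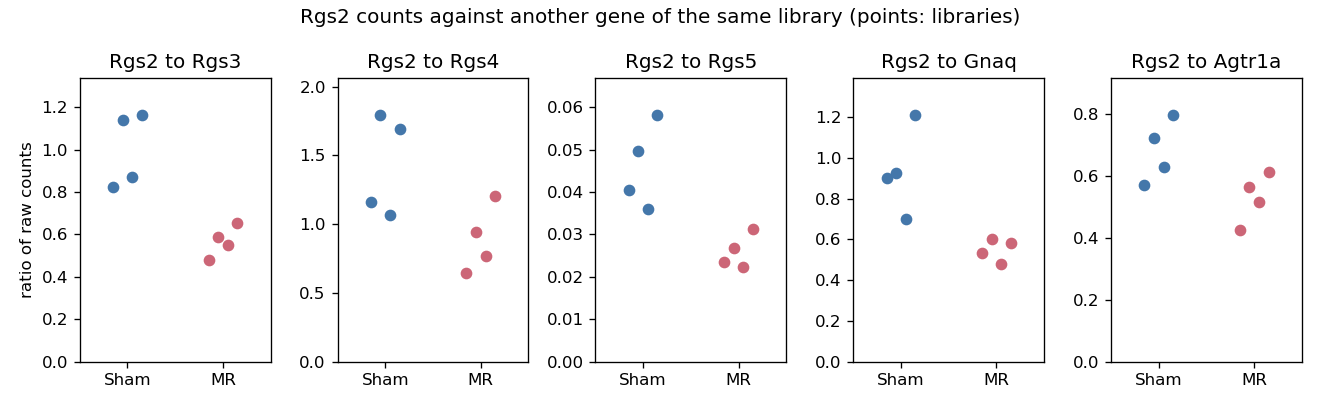
Ratio of raw Rgs2 counts to those of Rgs3, Rgs4, Rgs5, Gnaq and Agtr1a in the same library, 4 Sham (blue) and 4 MR (red) libraries in replicate order. The MR points lie below all Sham points for Rgs3, Rgs5 and Gnaq and overlap them for Rgs4 and Agtr1a.

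Rgs4, a close relative of Rgs2 that restrains Gq and Gi signalling and lies on the same chromosome, showed no such difference. Rgs4 (ENSMUSG00000038530, chromosome 1, 169741477 to 169747642, minus strand) was at 24.4, 19.2, 25.9 and 23.8 CPM in Sham and at 27.0, 22.1, 24.6 and 18.8 CPM in MR. Its highest and lowest libraries were both MR libraries. Its log2 fold change was −0.014 (SE 0.12, 95% interval −0.26 to 0.23), which turned to 0.03 with library totals as the only scaling.

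The stretches of DNA before the starts of Rgs2 and Rgs4 are shown because these members of the R4 group had unlike changes. Their Sham levels per kilobase of exon overlapped. Each run is the 250 bases before the RefSeq start in GRCm38.p6, 5′ to 3′ on the gene's strand, at chr1:144004150-144004399 for Rgs2 and chr1:169747643-169747892 for Rgs4, both on the minus strand. The last 12 bases of the Rgs2 run lie inside the longer GENCODE gene. Capitals mark matches on either strand to 4 motifs. TGACG is the core of the cAMP response element, and CCAAT is named for its letters. The GC box is GGGCGG. The TATA box was searched as TATAAA.
Rgs2: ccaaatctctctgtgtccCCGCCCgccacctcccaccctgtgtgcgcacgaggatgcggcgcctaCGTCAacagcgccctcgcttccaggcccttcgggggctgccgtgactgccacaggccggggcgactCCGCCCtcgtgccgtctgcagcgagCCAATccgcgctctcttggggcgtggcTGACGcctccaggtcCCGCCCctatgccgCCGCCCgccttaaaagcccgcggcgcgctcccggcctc
Rgs4: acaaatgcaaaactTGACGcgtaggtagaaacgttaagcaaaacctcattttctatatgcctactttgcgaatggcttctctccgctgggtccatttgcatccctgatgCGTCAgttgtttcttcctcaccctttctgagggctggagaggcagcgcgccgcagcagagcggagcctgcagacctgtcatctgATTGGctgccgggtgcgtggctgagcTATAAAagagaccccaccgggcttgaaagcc
The Rgs2 run held 2 matches to TGACG, 1 to CCAAT, 4 to GGGCGG and 0 to TATAAA, with 72.4% G and C. The Rgs4 run held 2, 1, 0 and 1, with 53.6% G and C, and its TATAAA began 31 bases before the start. Over 32851 RefSeq starts with a stretch of this length, 17.8% held TGACG, 33.8% CCAAT, 32.7% GGGCGG and 12.4% TATAAA, and the median share of G and C was 52.4%. No 2 matches overlapped in either run. Members that did not pass held such letters too. GGGCGG matched 2 times before Rgs10 (76.4% G and C), 2 before Rgs16 (66.4%) and 3 and 1 before Rgs12 (68.4% and 55.6%). It matched 1, 2 and 0 times before Rgs19 (64.8%, 74.8% and 54.4%), and 0 and 1 before Rgs3 (48.4% and 56.8%). Before Rgs7 (72.4%) and Rgs6 (59.2%) it matched 0 times. The first 2 runs of Rgs19 overlap and share 1 match, which is counted in both. The runs of Rgs10 and Rgs6 and the last runs of Rgs12, Rgs19 and Rgs3 lie wholly inside the longer GENCODE gene. A match is a description of letters and not a binding site. Any link of these letters to the changes was not tested. Starts of 9 members were in this table, with 13 entries, and Rgs14 had none.

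Rgs3, which acts on Gq and Gi, had the smallest SD relative to its mean of the 10 members in both groups. Rgs3 (ENSMUSG00000059810, chromosome 4, 62559847 to 62704001, plus strand) was at 34.3, 30.1, 31.8 and 34.7 CPM in Sham and at 36.2, 35.5, 34.6 and 34.4 CPM in MR. The 4 MR libraries lay above the Sham mean but overlapped the Sham range. Its log2 fold change was 0.10 (SE 0.07, 95% interval −0.04 to 0.25).

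Rgs16, an R4 gene known for its induction in activated lymphocytes and fasted liver, was rare in these hearts. Rgs16 (ENSMUSG00000026475, chromosome 1, 153740349 to 153745468) was at 1.35, 0.710, 1.06 and 0.864 CPM in Sham and at 0.971, 1.88, 1.19 and 0.854 CPM in MR. MR replicate 2 was the highest library, and the log2 fold change of 0.29 (SE 0.28) went to 0.0055 without it. With 30 to 85 counts per library the counting error alone came to 15.1% in Sham. An antisense gene shares exon sequence with Rgs16, and no source used here gives the strand setting of the counting, so this value is uncertain.

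Of the R7 group, Rgs7 was higher in every MR library but did not pass. Rgs7 (ENSMUSG00000026527, chromosome 1, 175059087 to 175492500), best known from neurons, was at 1.53, 1.26, 1.53 and 1.10 CPM in Sham and at 2.06, 1.66, 2.42 and 1.54 CPM in MR. The groups were separated only by the narrow gap between the highest Sham libraries and MR replicate 4. The log2 fold change was 0.50 (SE 0.20, 95% interval 0.07 to 0.92, adjusted p = 0.249 in edgeR) on 51 to 104 counts per library. With Rgs2, Rgs7 made 2 of 10 members whose groups did not overlap, against 8.1% of all genes tested; Rgs2 was 1 with MR below, as 3.91% of all genes were, and Rgs7 1 with MR above, as 4.19% were.

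Rgs6, which with G beta 5 limits the slowing of the heart by the vagus nerve, overlapped between groups. Rgs6 (ENSMUSG00000021219, chromosome 12, 82588292 to 83162056) was at 14.3, 19.1, 17.8 and 18.2 CPM in Sham and at 17.0, 14.9, 19.7 and 14.5 CPM in MR. Sham replicate 1 was the lowest of all 8 libraries. Its log2 fold change was −0.07 (SE 0.11, 95% interval −0.31 to 0.17), and an antisense gene overlaps its exons. Gnb5, the G beta 5 gene, named after its values were seen, had 19.5 ± 2.48 CPM in Sham hearts and 18.7 ± 0.561 in MR hearts (SD, n = 4). Rgs7bp, the membrane anchor of R7 proteins, was at 11.1 ± 2.03 and 11.5 ± 0.561 CPM (log2 fold change 0.05, SE 0.12).

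The R12 genes, which act on Gi, did not pass in either direction. Rgs12 (ENSMUSG00000029101, chromosome 5, 34949445 to 35039644), a large scaffold with a second Gi alpha binding motif, was at 15.2, 17.0, 21.5 and 14.8 CPM in Sham and at 18.9, 18.9, 21.2 and 17.2 CPM in MR. Sham replicate 3 was the highest library of both groups. The log2 fold change of 0.15 (SE 0.11) was 0.28 without it, with an adjusted p of 0.103 in edgeR, and an antisense gene overlaps the exons of Rgs12. Rgs14 (ENSMUSG00000052087, chromosome 13, 55369732 to 55384687), the other scaffold of this kind, was at 1.11, 0.450, 1.06 and 1.25 CPM in Sham and at 0.870, 0.687, 0.604 and 0.586 CPM in MR. Sham replicate 2 alone lay below the MR range, on 19 counts. The log2 fold change of Rgs14 was −0.50 (SE 0.30, 95% interval −1.14 to 0.14), −0.73 without Sham replicate 2 (adjusted p = 0.242 in edgeR) and −0.16 in limma-voom with quality weights.

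Rgs10, a small protein abundant in immune cells and brain, had 4.25 ± 0.436 CPM in Sham hearts and 4.32 ± 0.617 in MR hearts (SD, n = 4; log2 fold change 0.02, SE 0.13). It lies on chromosome 7, 128373621 to 128418758 (ENSMUSG00000030844). Rgs19, an RZ protein that acts on Gi and Gz, was at 3.95 ± 0.662 and 4.62 ± 0.773 CPM (log2 fold change 0.22, SE 0.15). It lies on chromosome 2, 181688419 to 181693977 (ENSMUSG00000002458). Both overlapped between groups, with 3.67 to 4.66 against 3.72 to 4.93 CPM for Rgs10 and 3.05 to 4.62 against 4.05 to 5.74 CPM for Rgs19.

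Over the 10 members, all of which passed the filter on low counts, 0 rose, 1 fell and 9 did not pass, and the median log2 fold change was 0.06 against 0.00193 over all genes tested. DESeq2 and limma-voom with quality weights also called Rgs2 and no other member, as did edgeR without Sham replicate 3. These settings call more genes throughout: 3.77% of all genes tested in DESeq2, 2.75% in limma-voom and 5.28% in edgeR without Sham replicate 3, against 0.458% in edgeR with all libraries. At an unadjusted p under 0.05 in edgeR, 1 member was lower and 1 higher, against 7.29% and 7.78% of all genes tested, or 15.1% in either direction.

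**Figure D4:**
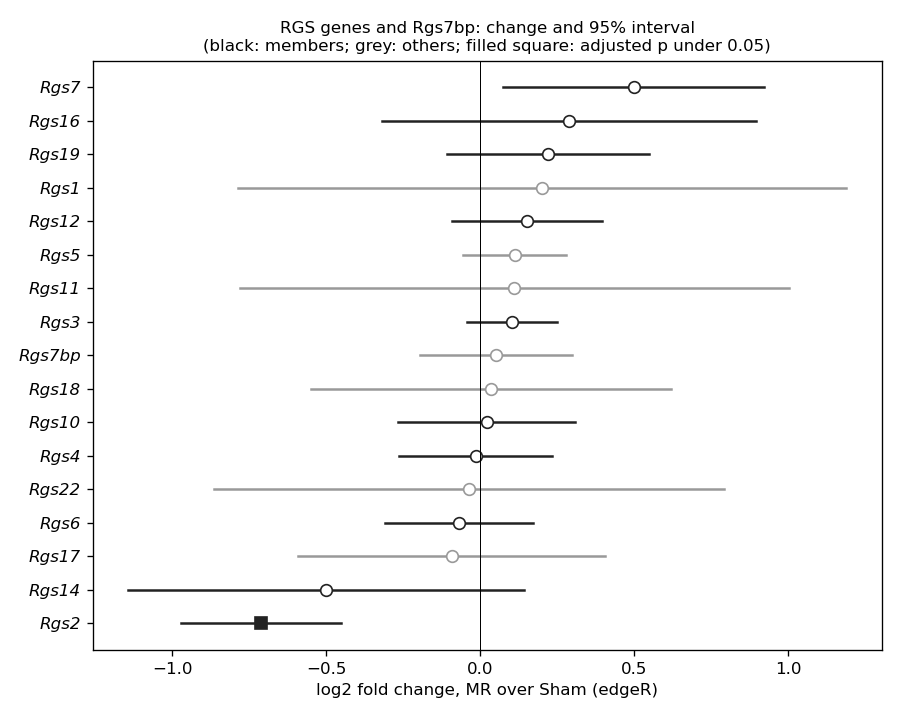
Log2 fold change, MR over Sham, with 95% interval from edgeR for the 10 members (black) and for other RGS genes and Rgs7bp that passed the filter (grey). The filled square, Rgs2 at −0.71, is past an adjusted p of 0.05; the intervals of Rgs3, Rgs4 and Rgs6 lie within −0.31 to 0.25, while those of rare genes are wide, from −0.79 to 1.19 for Rgs1.

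Other RGS genes, also listed with earlier results of these data known, did not pass either. Of 13 other RGS genes and partners, 7 were tested in edgeR, and edgeR and limma-voom each called 0, with 0 at an unadjusted p under 0.05 in edgeR. DESeq2 called 0 as well but gave no adjusted p for Rgs1 and Rgs22. Rgs5, a marker of pericytes, was by far the most abundant with 714 ± 38.3 CPM in Sham hearts and 771 ± 60.4 in MR hearts (SD, n = 4; log2 fold change 0.11, SE 0.08). Rgs17, an RZ gene, was at 2.48 ± 0.557 and 2.34 ± 0.745 CPM, and Rgs18, known from platelets and other blood cells, at 0.977 ± 0.319 and 1.01 ± 0.215 CPM. Rgs1, Rgs11 and Rgs22 were under 0.5 CPM in every group mean. Rgs8, Rgs9, Rgs13, Rgs20, Rgs21 and Rgs9bp were too rare to be tested, with means under 0.15 CPM.

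Per length, Rgs2 and Rgs4 were the most abundant members. In Sham, Rgs2 stood first at 9.0 ± 1.62 CPM per kilobase of exon and Rgs4 second at 7.53 ± 0.942 (SD, n = 4), with ranges that overlapped. In MR the order was turned, with Rgs4 at 7.46 ± 1.14 and Rgs2 at 5.49 ± 0.626, and the ranges still overlapped (6.06 to 8.71 against 4.77 to 6.23). Rgs3 followed at 3.03 ± 0.201 in Sham, then Rgs10 at 2.49 ± 0.255, Rgs12 at 2.02 ± 0.362, Rgs19 at 1.77 ± 0.297 and Rgs6 at 1.73 ± 0.210. Rgs10, Rgs12 and Rgs19 each overlapped the next in order, whereas Rgs3 was separate from the genes on both sides. Rgs16 (0.425 ± 0.117), Rgs14 (0.228 ± 0.0838) and Rgs7 (0.225 ± 0.0354) came last. The place of Rgs3 depended on the length used, because its 17 annotated transcripts together cover 10801 bases and the longest covers 4698. With the longest transcript Rgs2 and Rgs4 no longer overlapped in Sham, and Rgs3 was at 6.97 ± 0.463 in Sham, under Rgs2 at 10.8 ± 1.95, and at 7.49 ± 0.172 in MR, above Rgs2 at 6.59 ± 0.751. Rgs5 took 84.2% of the summed level per length of 21 RGS genes in Sham and 86.4% in MR, and Rgs2 took 4.83% and 2.80%.

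**Figure D5:**
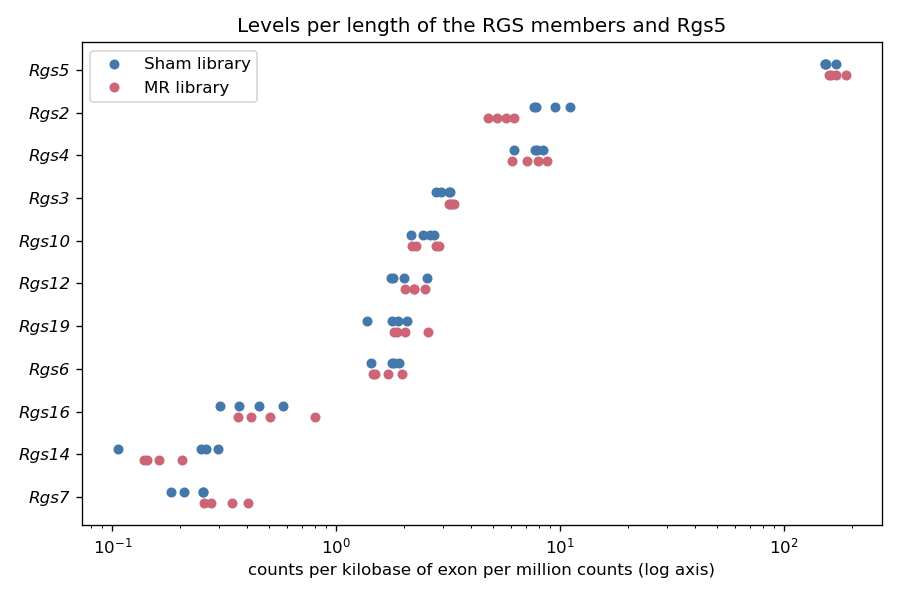
Level per length, in CPM per kilobase of exon on a log axis, of the 10 members and of Rgs5 in 4 Sham (blue) and 4 MR (red) libraries. Rgs5 lies between 152 and 188, Rgs2 and Rgs4 between 4.77 and 11.1, and Rgs16, Rgs14 and Rgs7 under 1.

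Among the genes whose proteins RGS2 meets in the Gq pathway, the angiotensin II receptor gene Agtr1a also fell. Agtr1a (ENSMUSG00000049115, chromosome 13, 30336441 to 30382867), the main angiotensin II receptor of the mouse heart, was at 49.6, 47.5, 44.3 and 50.7 CPM in Sham and at 40.8, 36.9, 37.0 and 37.0 CPM in MR. The groups did not overlap, and the log2 fold change was −0.34 (SE 0.07, 95% interval −0.49 to −0.19, adjusted p = 0.0483 in edgeR), lower in 4 of 4 MR libraries. The adjusted p was close to the threshold. The call was lost with library totals as the only scaling (0.0617), with a filter of 1 CPM in 4 libraries (0.0512) and when Sham replicate 2, Sham replicate 4 or any MR library was left out (0.0803 to 0.168). Counts of Rgs2 per count of Agtr1a overlapped, at 0.570 to 0.794 in Sham and 0.424 to 0.610 in MR.

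Of 18 receptors tested that couple mainly to Gq, 0 rose, 1 fell and 17 did not pass, with a median log2 fold change of −0.02. At an unadjusted p under 0.05 in edgeR, 2 were higher and 5 lower (7.78% and 7.29% of all genes tested were), and the groups did not overlap for 5 of 18 (8.1% of all genes tested). Adra1a and Adra1b, the alpha-adrenergic receptor genes of heart muscle, were at 28.7 ± 6.53 against 27.7 ± 4.05 CPM and at 23.8 ± 3.71 against 19.7 ± 2.75 CPM (SD, n = 4). Ednra, an endothelin receptor gene, had a log2 fold change of −0.25 (adjusted p = 0.326 in edgeR). Ednrb, the other endothelin receptor gene, named after its values were seen, had 0.09 (adjusted p = 0.686 in edgeR). DESeq2, limma-voom and edgeR without Sham replicate 3, which called 617, 457 and 887 of all genes where edgeR with all libraries called 76, each called 3 of these receptors, Agtr1a and P2ry1 lower and Tbxa2r higher, the latter pair being genes of a nucleotide and a thromboxane receptor that were named after their values were seen.

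The genes of the G protein subunits did not pass. Of 13 alpha subunit genes edgeR, DESeq2 and limma-voom called 0. At an unadjusted p under 0.05 in edgeR 1 was higher (7.78% of all genes tested were). Gnaq had 35.3 ± 3.68 CPM in Sham hearts and 36.4 ± 3.46 in MR hearts, and Gna11, which encodes the other Gq-class subunit of heart muscle, at 60.3 ± 2.75 and 62.7 ± 2.63 (SD, n = 4). The 95% intervals of their log2 fold changes were −0.15 to 0.24 and −0.08 to 0.19. Gnai2, the most abundant Gi gene, was at 176 ± 6.20 and 176 ± 12.4 CPM, and Gnai3 at 33.0 ± 2.36 and 32.7 ± 2.45 CPM. Gnao1, the Go gene, was at 17.1 ± 1.54 against 20.3 ± 1.15 CPM (log2 fold change 0.25, adjusted p = 0.168 in edgeR) and passed without Sham replicate 3 (adjusted p = 0.0439), and Gna13 had a log2 fold change of 0.17. Of 12 beta and gamma genes the 3 tools called 0. At an unadjusted p under 0.05 in edgeR 2 were higher and 1 lower, against 7.78% and 7.29% of all genes tested. Gnb4 had a log2 fold change of 0.28 (adjusted p = 0.226 in edgeR) and passed without Sham replicate 3 (adjusted p = 0.0407). The rare Gng8 had a log2 fold change of 0.95 (adjusted p = 0.240).

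On the Gi side, the 12 receptors tested were listed as coupling mainly to Gi or Go, which was not measured here. In edgeR 0 of them passed. At an unadjusted p under 0.05, 4 were higher and 0 lower, against 7.78% and 7.29% of all genes tested. The lowest p-values were those of Cxcr4, a chemokine receptor gene, at 3.64 ± 1.07 against 6.37 ± 1.02 CPM (log2 fold change 0.80, adjusted p = 0.0697) and of S1pr3, a sphingosine phosphate receptor gene, at 19.2 ± 2.96 against 25.3 ± 1.86 CPM (0.39, adjusted p = 0.0873). DESeq2, which called 3.77% of all genes tested, called both. With limma-voom, which called 2.75%, both and Aplnr, the apelin receptor gene, were called. Without Sham replicate 3 edgeR, which then called 5.28% of all genes tested, called these 3 as well. The adjusted p in that fit was 0.00280 for Cxcr4 and 0.00688 for S1pr3. Aplnr was named after its values were seen. It was at 24.5 ± 14.9 against 51.4 ± 9.30 CPM, with groups that overlapped and an adjusted p of 0.312 in edgeR. Sham replicate 3 held 46.0 CPM of Aplnr and the other Sham libraries 11.8 to 21.6 CPM. Chrm2, the muscarinic receptor that slows the heart, was at 143 ± 25.0 against 134 ± 14.5 CPM. Kcnj5 and Kcnj3, the subunits of the potassium channel that it opens and that RGS6 helps to close, differed by −0.27 for Kcnj5 (adjusted p = 0.212 in edgeR) and −0.19 for Kcnj3 (adjusted p = 0.398) on the log2 scale. Of the 2 channel genes tested the 3 tools called 0, with 1 lower at an unadjusted p under 0.05 (7.29% of all genes tested were). Both passed in edgeR once Sham replicate 3 was left out (adjusted p 0.0256 and 0.0489), a fit that called 887 of all genes. Gnao1, Gnb4, Cxcr4, S1pr3, Kcnj5 and Kcnj3 each passed in that 1 of the 8 fits with a library left out and in 0 of the other 7.

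Effectors of Gq had 0 of 16 past the threshold in each of the 3 tools, with 1 higher and 2 lower at an unadjusted p under 0.05 in edgeR, a share near the 15.1% of all genes tested. The lowest p-values were those of Plcb2, a phospholipase gene, and Prkce, a protein kinase C gene, with log2 fold changes of −0.40 (adjusted p 0.256) and −0.16 (adjusted p 0.284). Of 15 receptor kinase, arrestin and other regulator genes 0 passed in edgeR and limma-voom. At an unadjusted p under 0.05 in edgeR 2 were lower (7.29% of all genes tested were). DESeq2, which called 3.77% of all genes tested, called Gpsm1 lower (log2 fold change −0.19 in DESeq2 and edgeR). Gpsm1, which holds Gi alpha in its GDP form, was at 123 ± 4.28 against 108 ± 2.49 CPM, and its adjusted p was 0.164 in edgeR; an antisense gene overlaps its exons. Rasd2, a small G protein gene, had a log2 fold change of −0.41 (adjusted p = 0.175). Of 9 genes of cGMP and its kinase, which phosphorylates RGS2, 0 passed in edgeR and limma-voom, and DESeq2 called Gucy1a2 higher. At an unadjusted p under 0.05 in edgeR 1 was higher (7.78% of all genes tested were). Gucy1a2, a guanylyl cyclase subunit gene, had a log2 fold change of 1.04 and Pde5a, a cGMP phosphodiesterase gene, 0.22 (adjusted p 0.118 and 0.430 in edgeR). Over all 104 pathway genes tested that are no members, 1 passed (0.458% of all genes did) and 10 did not overlap (8.1% of all genes did not), with a median log2 fold change of 0.03.

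The genes next to Rgs2 on the chromosome were described because 4 of them are RGS genes too. Rgs13, Rgs1, Rgs21 and Rgs18 lie 134.5, 238.1, 512.5 and 748.5 kilobases from Rgs2. All were rare, with Rgs18 the highest at about 1 CPM. Of 14 genes in the table within 1 megabase, 10 were tested and 0 passed in edgeR, with log2 fold changes of −0.60 to 0.43 and a lowest adjusted p of 0.107.

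The 5 genes most like Rgs2 over the 8 libraries were Mtus2, Lad1, Hif3a, Cpeb3 and Osmr, among 12191 genes compared. Likeness was the root mean square difference of log2 CPM after each gene was centred on its mean, which was 0.12, 0.13, 0.13, 0.15 and 0.15 for these genes against a median of 0.42. Mtus2 encodes a microtubule-associated protein, Hif3a a hypoxia-inducible factor, Cpeb3 an RNA-binding protein and Osmr the oncostatin M receptor. In all 5, as in Rgs2, the 4 MR libraries lay below the 4 Sham libraries and Sham replicate 4 was the highest, which the choice by likeness favours. Osmr, for example, was at 37.0, 41.6, 38.1 and 47.8 CPM in Sham and at 27.9, 27.7, 30.1 and 28.9 CPM in MR. Of the 9 other members, 8 were less like Rgs2 than the median gene, from 0.45 for Rgs3 to 0.71 for Rgs7, and Rgs6 (0.40) was slightly more like it. Because Rgs2 was chosen by its lower count in MR, any gene without that fall differs from it by this measure. The count of 8 therefore restates that choice and supports nothing. The minimum of 1 CPM was not put on the members, and Rgs14 had means of 0.968 CPM in Sham and 0.686 in MR. Counting error adds to the difference of rare genes such as Rgs7, Rgs14 and Rgs16.

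Markers of other cells were set beside Rgs2, which many cell types of the heart transcribe. The summed CPM of 8 neutrophil markers, all found in the table, came to 36.6, 14.6, 10.6 and 67.9 in the Sham libraries and 4.89 to 8.92 in the MR libraries, so that it was lower in MR as Rgs2 was. Sham replicate 4 was the highest library in both and Sham replicate 3 the lowest Sham library in both, but Sham replicate 2 had more Rgs2 and fewer neutrophil transcripts than Sham replicate 1. The summed CPM of 6 atrial markers was 48.7 to 79.4 in Sham and 102 to 221 in MR. MR replicate 3 held 221 CPM and the other MR libraries 102 to 110 CPM. The list includes Nppa, and the sum does not show which of its genes rose. None of these markers was at 0 in all libraries, and no neutrophil or atrial marker passed in edgeR. Of the other 12 lists, whose sums overlapped between groups, 1 marker passed: the fibroblast collagen gene Col1a1 rose from 43.4 ± 11.2 CPM in Sham to 75.8 ± 4.83 CPM in MR hearts (SD, n = 4), by 0.81 on the log2 scale with an adjusted p of 0.0483 in edgeR. The cardiomyocyte sum was 55866, 59335, 51048 and 58160 CPM in the Sham libraries and 53417, 48495, 47049 and 52070 in the MR libraries, so that only Sham replicate 3 lay inside the MR range. Sums were 591 to 800 CPM in Sham and 665 to 782 in MR for pericytes, and 1371 to 1548 against 1399 to 1523 for smooth muscle. The part of these cells in the Rgs2 result was not tested.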

How the data were processed

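The authors deposited 1 table of raw read counts, a row per Ensembl gene and a column per library. Per the submitters' processing notes, HISAT2 2.0.5 and the mm10 build are listed, with no step stated for either. No source used here gives the counting tool, its strand setting or its annotation. Exons overlap a gene on the opposite strand for Gnao1, Gna13, Gnb5, Ednra, P2ry1, S1pr3, Chrm2, Kcnj3 and Pde5a as well. The same holds for Rgs8, Rgs11 and Rgs20, and exons of Prkce overlap a gene on its own strand. The values of these genes are uncertain as that of Rgs16 is. Genes with 2 counts outnumbered those with 1 by 2.27 to 2.82 times per library, so both ends of a fragment may have been counted, and counting errors given here are then too small. The 95% intervals come from the edgeR fit and include the spread between libraries. Libraries of a group differed beyond counting error (chi-square per degree of freedom 12.0 to 42.6), and none was a copy of another. That libraries came from separate animals is not stated, so each p-value sets groups against library spread, which may be technical. Symbols (32350 of 33105 identifiers), positions and exon lengths came from GENCODE M21 (GRCm38), and starts from RefSeq.

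Counts were filtered with filterByExpr (minimum count 10, total 15), scaled by TMM and tested with the edgeR 4.0.16 quasi-likelihood test, robust, in R 4.3.3, with Benjamini-Hochberg adjustment over 16603 genes. SE was derived from the log2 fold change and its F statistic. The fit was tested on simulated data. Alternatives were RLE factors, library totals, no filter, 1 CPM in 4 libraries, DESeq2 1.42.0, limma-voom (limma 3.58.1), no robust moderation, each library left out, length of the longest transcript and a prior count of 0.5.

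Members, lists and tests were chosen with earlier results of these data known. Named were the members, other RGS genes with counts, genes past the threshold in each of 9 pathway lists or else the 2 with the lowest p, 10 fixed receptor and subunit genes, and the 5 genes most like Rgs2 (mean of at least 1 CPM, prior count 2). Of the lists, Irag1 was matched under its older symbol Mrvi1.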

Additional observations from a re-analysis of the deposited data

Results flagged for a closer look

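Each of 45 named genes tested was examined in both groups for a library that stood apart from its 3 fellows by a gap above Dixon's critical value. Of 90 groups 5 were picked out, where chance picks about 1 in 20, and 0 of them belonged to an RGS member. Rgs5 was at 771 CPM in Sham replicate 3 against 689 to 701 in the other Sham libraries, and Gng8 at 0.495 CPM in the same library against 0.209 to 0.237. Agtr1a was at 40.8 CPM in MR replicate 1 against 36.9 to 37.0 in the other MR libraries. Ednra was at 51.1 CPM in MR replicate 4 against 38.3 to 40.4, and Gnai3 at 29.5 CPM in Sham replicate 2 against 33.9 to 34.5.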

How the results depend on the processing

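No paired analysis was possible because the labels pair no Sham library with an MR library. The replicate numbers used here only follow the order of the samples within each group. The numbers in the titles of the MR libraries are all lower than those of the Sham libraries. What they stand for is not given, so anything tied to them cannot be told apart from MR against Sham. Rgs2 was the only member called under all 7 settings that kept the 8 libraries, and the number of members called was 0 to 1 with a library left out. Of all genes, 76 passed (40 higher, 36 lower). No filter gave 936 (517 and 419), DESeq2 617 (309 and 308) and limma-voom 457 (248 and 209). Library totals alone gave 53 higher and 17 lower, or 75.7% higher against 52.6%, and 1 CPM in 4 libraries left 20 lower and did not test Rgs14. With a library left out 3 to 887 passed, 1 to 497 higher and 2 to 390 lower, with the highest counts without Sham replicate 3. Pathway genes past the threshold numbered 1, but 0 with library totals or the 1 CPM filter, 7 with no filter, 7 with DESeq2, 6 with limma-voom, and 0 to 10 with a library left out. The cause was not tested. Rgs4 turned to 0.028 with library totals and 0.082 in limma-voom, Rgs22 to 0.0068 and 0.070, and Gnai3 to 0.0268 and 0.0269. In limma-voom Rgs18 turned to −0.093 and Gnaq to −0.0028. Gnai2 turned to −0.0027 with RLE factors and −0.0044 in DESeq2. With a library left out the sign turned in at least 1 fit for Rgs4 (−0.10 to 0.075), Rgs10 (−0.049 to 0.085), Rgs1 (−0.084 to 0.51), Rgs11 (−0.15 to 0.35), Rgs17 (−0.25 to 0.051), Rgs18 (−0.17 to 0.20), Rgs22 (−0.16 to 0.14), Rgs7bp (−0.026 to 0.18), Adra1a (−0.21 to 0.044), Chrm2 (−0.18 to 0.015), Gnaq (−0.014 to 0.10), Gnai2 (−0.047 to 0.031) and Gnai3 (−0.067 to 0.013). Both counts of separate neighbours in the order of levels stayed at 4 with the longest transcript, and the 5 genes most like Rgs2 were the same with a prior count of 0.5. Depth limits Rgs7, Rgs14 and Rgs16, whose counting error was 10.4% to 17.2%.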
